A study of Drosophila melanogaster with 12 samples.

Results

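The subunits of the CCR4-NOT and PAN complexes, the main deadenylases of eukaryotic cells, were followed across fly gonads. The 7 genes were twin, Pop2, Not1, Not3, Rga, PAN2 and PAN3. They were taken from a list of deadenylase genes by symbol, and all 7 were present among the 17558 features of each of the 12 count files. That rule uses no measured value.

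Deadenylases shorten the poly(A) tail of mRNAs, which lowers their translation and usually starts their decay. In CCR4-NOT, the scaffold Not1 holds the nucleases twin (the fly CCR4) and Pop2 (the fly CAF1) at its centre and the Not3 and Rga (Not2) pair at its end, while PAN2 is a separate nuclease that PAN3 brings to the tail. In the fly germline CCR4-NOT is known from germline stem cells, where Nanos and Pumilio recruit it, and from maternal mRNAs, where Smaug recruits it in the embryo.

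RNA-seq gene counts came from dissected Drosophila melanogaster gonads in 4 groups of 3 libraries, which the labels call biological replicates. The groups were Tdrd5l mutant testes, control testes of the genotype named cas9 iso, Tdrd5l mutant ovaries and cas9 iso control ovaries. Tdrd5l encodes a Tudor domain protein, and the lesion in the mutant is not described in the labels. All flies were raised at 25 °C; males were 1 to 2 days old with ribosomal RNA depleted from their RNA, whereas females were 0 to 1 day old with poly(A) RNA selected. Tissue, sex, age and RNA selection therefore cannot be told apart.

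Gene counts totalled 1390699 to 2880119 in a testis library and 772292 to 1647933 in an ovary library. Tdrd5l itself had 326, 269 and 414 CPM (counts per 1000000 gene counts) in mutant testes, against 390, 324 and 307 CPM in control testes. It had 13.2, 4.85 and 12.05 CPM in mutant ovaries, against 9.28, 4.75 and 7.77 CPM in control ovaries, so a count over the whole gene did not separate the genotypes in either tissue and does not check the labels. Testis germ cell markers summed to 4031 to 8741 CPM in mutant testes and 3779 to 5088 CPM in control testes, with all 13 counted in both. In mutant and control ovaries they summed to 7.70 to 15.2 and 11.7 to 19.0 CPM, with 9 of 13 at 0 counts in each. Ovary germ cell and follicle markers summed to 368 to 2677 CPM in mutant ovaries and 416 to 692 CPM in control ovaries, and to 296 to 630 CPM in mutant and 411 to 556 CPM in control testes. That list did not separate the tissues, and the vitelline membrane genes Vm26Aa, Vm26Ab and Vm32E were at 0 counts in control ovaries. Somatic cyst and hub, accessory gland and fat body markers summed to at most 389, 366 and 56.7 CPM in a library.

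A pair of libraries stood apart for these genes. Mutant ovary library 2 was the highest of the 6 ovary libraries for 7 of the 7 deadenylase genes. It was so for 52.7% of all genes with at least 60 counts over those libraries. Among those with no exon opposite another gene's exon, like Pop2, PAN2 and PAN3, the share was 78.3%. The library also summed to 2677 CPM over the ovary markers and 2746 CPM over 7 muscle markers. The other mutant ovary libraries had 368 to 384 and 185 to 217 CPM, and control ovaries 416 to 692 and 506 to 1586 CPM. Mutant testis library 3 was the lowest of the 6 testis libraries for 6 of the 7 genes, all but Rga. It was so for 28.0% of the genes with that many counts, and for 33.5% of those with no such exon. It summed to 4031 CPM over the testis germ cell markers, against 7703 and 8741 CPM in the other mutant testis libraries.

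The tissue contrasts of the nucleases twin and Pop2 ran against those of Not3 and Rga. Per kilobase of exon, twin had the most counts in testes, with Pop2 next, and Not3 and Rga had the most in ovaries. The share of exon bases opposite another gene is 34.4% in Rga, 9.61% in twin, 9.52% in Not3, 0.944% in Not1 and 0 in the others. In controls the median log2 difference between testes and ovaries was 2.05 for genes with no such bases and -0.40 for the rest. The part of this in the order was not tested, nor which strand's reads the counts hold. Between mutant and control gonads no gene passed the test, of 7 tested in testes and 5 in ovaries. The share of each gene in the summed level per kilobase put these differences side by side. The catalytic twin made up 66.3% ± 4.94 of that sum in mutant testes and 66.9% ± 0.910 in control testes, and 8.84% ± 2.73 in mutant ovaries and 10.99% ± 1.54 in control ovaries (SD, n = 3 each). Not3 made up 3.29% ± 0.682 in mutant testes and 3.71% ± 0.242 in control testes, against 40.0% ± 9.70 in mutant ovaries and 42.8% ± 4.95 in control ovaries. Every testis library was more than 61% twin, and no ovary library reached 13%.

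**Figure D1:**
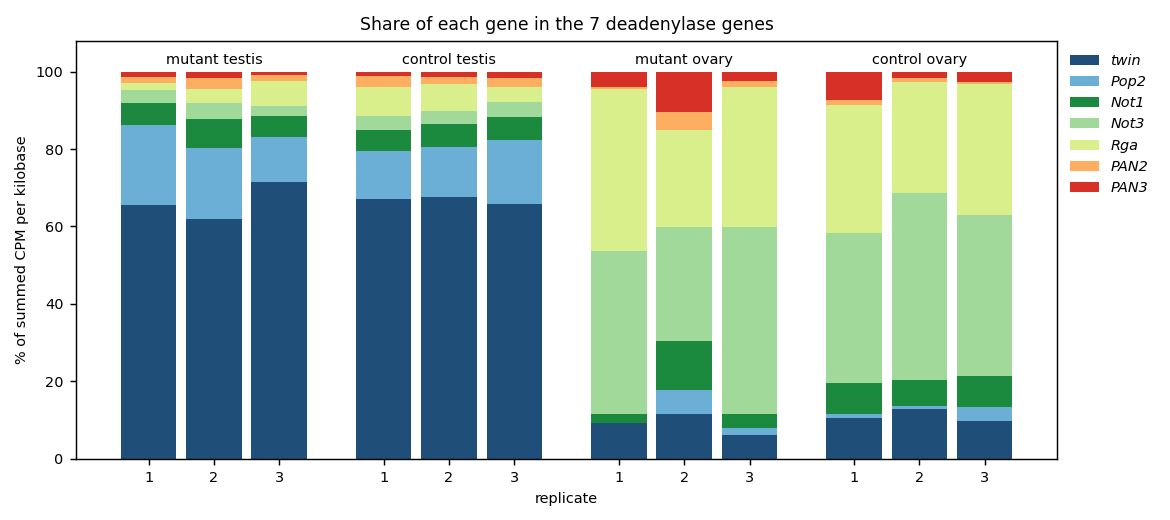
Stacked bars give each gene's share (%) of the summed CPM per kilobase of the 7 deadenylase genes, 1 bar per library, grouped by genotype and tissue. The twin share is 61.8% to 71.6% in mutant and 65.9% to 67.7% in control testes, and 5.96% to 11.4% in mutant and 9.67% to 12.7% in control ovaries.

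The comparison of tissues was made with edgeR's quasi-likelihood test on all 12 libraries, adjusted over 10321 genes (Benjamini-Hochberg, threshold 0.05). Between mutant testes and mutant ovaries 5 of the 7 genes were called, twin and Pop2 as higher and Not3, Rga and PAN3 as lower in testes. The background was high: 63.0% of all genes were called, 41.2% as higher and 21.9% as lower, so the number called is not particular to the deadenylase genes. Between control testes and control ovaries 5 of 7 were again called, against 63.0% of all genes (42.7% higher, 20.2% lower). There twin, Pop2 and PAN2 were higher, and Not3 and Rga lower, in testes. Without mutant ovary library 2 the mutant comparison called 6, with Not1 and PAN2 as higher and PAN3 no longer called. In that fit 71.8% of all 10518 genes were called, 50.6% higher and 21.1% lower. In CPM the libraries of the tissues did not overlap for 4 of 7 genes in mutants (62.7% of all genes) and for 6 of 7 in controls (73.8% of all genes). Since these are bulk samples, fewer cells of a type and less RNA per cell cannot be told apart.

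The scaling of libraries moved the whole tissue contrast. The median log2 difference of all genes between mutant testes and mutant ovaries was 0.82 with TMM scaling, 0.05 with upper quartile scaling and 0.10 with TMM factors from genes without an opposite exon, that is, with no exon base on the strand facing an exon of another gene. Genes called higher and lower numbered 4248 and 2256, 3525 and 3319, and 3614 and 3309 under those scalings. In controls the medians were 1.09, 0.32 and 0.15, and the counts were 4412 and 2090, 3699 and 3002, and 3583 and 3210. Leaving out mutant ovary library 2 moved the mutant median further than any of these scalings, to 1.78 with TMM. Each member is therefore also given relative to the median of all genes. In the fit without that library the mutant values relative to the median were 2.15 for twin, 3.21 for Pop2, 0.19 for Not1, -4.69 for Not3, -4.30 for Rga, -0.10 for PAN2 and -2.23 for PAN3, so Not1 and PAN2, called there, lay close to the median of all genes.

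**Figure D2:**
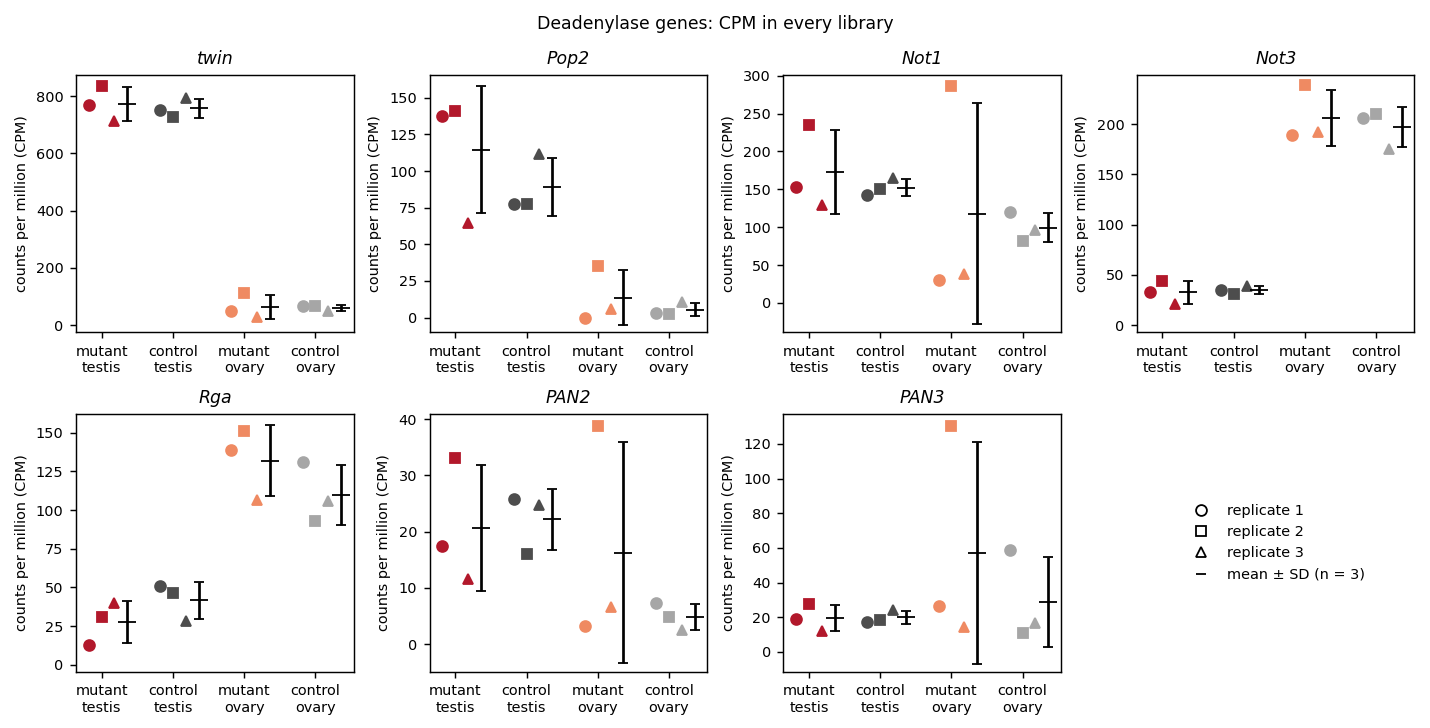
CPM of each deadenylase gene in every library (symbols by replicate number), by group, with the mean and SD of 3 libraries beside them. Levels of twin and Pop2 are higher in testes, those of Not3 and Rga higher in ovaries, and mutant ovary library 2 lies above the other ovary libraries in every panel.

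The nuclease gene twin (FBgn0011725) lies on chromosome 3R at 24196893 to 24221965, minus strand (BDGP6.54), with 4723 exon bases. It had 770, 835 and 714 CPM in mutant testes, against 751, 728 and 793 CPM in control testes. Ovary libraries held far less, with 49.5, 112 and 28.5 CPM in mutant ovaries, against 68.1, 66.6 and 49.2 CPM in control ovaries. Each of the 6 testis libraries was above each of the 6 ovary libraries, and the genotypes overlapped within both tissues. By mean CPM twin ranked 160th of the 17558 features in mutant testes and 167th in control testes, against ranks 1772 and 1766 in mutant and control ovaries. Its log2 difference was 3.63 (SE 0.43) between mutant testes and mutant ovaries and 3.52 (SE 0.42) between control testes and control ovaries, 12.4-fold and 11.4-fold, with edgeR adjusted p = 8.76e-07 and 1.57e-06. Relative to the median of all genes these differences were 2.64 to 2.83 and 2.39 to 2.44 over 5 scalings.

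Within a tissue, the level of twin did not separate the genotypes. The log2 difference was 0.03 (95% interval -0.63 to 0.68, edgeR adjusted p = 0.994) between mutant and control testes and 0.13 (95% interval -0.96 to 1.21, edgeR adjusted p = 0.999) between mutant and control ovaries. The ovary value was -0.38 without mutant ovary library 2 (edgeR adjusted p = 0.586), so its sign rested on that library. Of the exon bases of twin, 454 (9.61%) lie opposite cav, a gene that starts inside the twin locus on the other strand. The levels of cav ran the other way between tissues, at 219 to 420 CPM in mutant and 284 to 331 CPM in control testes, and 425 to 772 CPM in mutant and 554 to 779 CPM in control ovaries. The kit named for the libraries does not mark strand, and the strand setting of the counting is not stated. The part of the shared bases in the twin counts was not tested.

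The other nuclease, Pop2 (FBgn0036239), lies on chromosome 3L at 11998398 to 12002915, minus strand, with 2665 exon bases and none opposite another gene. Its level was 138, 141 and 64.6 CPM in mutant testes, against 77.7, 77.4 and 112 CPM in control testes. In ovaries it was near the limit of counting, with 0, 58 and 5 counts (0, 35.2 and 5.48 CPM) in mutant libraries and 3, 2 and 8 counts (3.09, 2.38 and 10.4 CPM) in control libraries. The 0 in mutant ovary library 1 allows up to 3.30 CPM at 3 counts, for counting error alone. Testis libraries were all above ovary libraries, while mutant testis libraries lay on both sides of the controls. The log2 difference between tissues was 3.15 (SE 0.71, edgeR adjusted p = 8.25e-04) in mutants and 3.97 (SE 0.80, edgeR adjusted p = 3.20e-04) in controls. Without mutant ovary library 2 the mutant value was 4.99 (edgeR adjusted p = 9.22e-07). Relative to the median of all genes the differences were 2.21 to 2.55 in mutants and 2.82 to 2.91 in controls over 5 scalings.

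Pop2 differed by 0.34 on the log2 scale (95% interval -0.34 to 1.01, edgeR adjusted p = 0.898) between mutant and control testes, and by 0.53 without mutant testis library 3 (edgeR adjusted p = 0.200). It fell below the count filter in the ovary comparison. Where other settings kept it, its log2 difference there was 1.08 to 1.18, and the smallest edgeR adjusted p was 0.880. Without mutant ovary library 2 the mutant ovary mean was 2.74 CPM rather than 13.6 CPM, against 5.28 CPM in control ovaries. The interaction term of Pop2 was -0.82 (edgeR adjusted p = 0.99990), and 1.01 without that library (edgeR adjusted p = 0.745).

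The scaffold gene Not1 (FBgn0085436) lies on chromosome 2R at 9566146 to 9579007, minus strand, with 10916 exon bases, 103 of them (0.944%) opposite lncRNA:CR46257, which was not analysed here. It had 153, 236 and 129 CPM in mutant testes, against 142, 150 and 165 CPM in control testes. In mutant ovaries it had 29.7, 286 and 38.3 CPM, against 120, 82.0 and 95.8 CPM in control ovaries. Mutant ovary library 2 held the highest Not1 level of all 12 libraries, and the other mutant ovary libraries the lowest. The tissue difference did not pass the test in mutants (log2 0.74, SE 0.51, edgeR adjusted p = 0.215) or in controls (log2 0.52, SE 0.51, edgeR adjusted p = 0.389). In CPM, control testes lay above control ovaries in all libraries. Relative to the median of all genes the values were -0.23 to 0.05 in mutants and -0.61 to -0.56 in controls over 5 scalings. Without mutant ovary library 2, Not1 was called as higher in mutant testes (log2 1.97, edgeR adjusted p = 7.47e-05).

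Between mutant and control ovaries, Not1 had a log2 difference of 0.27 with a 95% interval of -1.566 to 2.099 (edgeR adjusted p = 0.999). Without library 2 it was -1.28 (edgeR adjusted p = 0.0812), so 1 library set the sign. In testes the difference was 0.16 (95% interval -0.49 to 0.80, edgeR adjusted p = 0.962).

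Not3, which pairs with Rga in the NOT module, showed the reverse tissue contrast. The gene (FBgn0033029) lies on chromosome 2R at 5656406 to 5663222, minus strand, with 3919 exon bases. It had 32.6, 44.1 and 21.3 CPM in mutant testes, against 35.2, 30.7 and 39.0 CPM in control testes. Ovary libraries held more, with 189, 238 and 192 CPM in mutant ovaries, against 206, 210 and 175 CPM in control ovaries. All ovary libraries were above all testis libraries, and the ovary values of the genotypes interleaved. The log2 difference between testes and ovaries was -2.82 (SE 0.42, edgeR adjusted p = 1.21e-05) in mutants and -2.61 (SE 0.42, edgeR adjusted p = 3.13e-05) in controls, 7.05-fold and 6.08-fold lower. Relative to the median of all genes it was -4.02 to -3.42 in mutants and -3.75 to -3.67 in controls over 5 scalings.

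The genotype difference of Not3 was -0.12 on the log2 scale (95% interval -0.84 to 0.60, edgeR adjusted p = 0.976) in testes and 0.20 (95% interval -0.42 to 0.81, edgeR adjusted p = 0.999) in ovaries. Its end shares 373 exon bases (9.52%) with CG1344 on the opposite strand. CG1344 moved the same way between tissues, at 25.5 to 32.3 CPM in mutant and 37.8 to 50.3 CPM in control testes, and 256 to 331 CPM in mutant and 340 to 405 CPM in control ovaries. The part of these shared bases in the Not3 counts was not tested.

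Rga, the fly NOT2, followed Not3. The gene (FBgn0017550) lies on chromosome 3R at 5607275 to 5613112, minus strand, with 2902 exon bases. It had 12.8, 31.0 and 39.6 CPM in mutant testes, against 51.1, 46.1 and 28.3 CPM in control testes. In mutant ovaries it had 139, 151 and 106 CPM, against 131, 92.7 and 106 CPM in control ovaries. Every ovary library was above every testis library. The log2 difference between testes and ovaries was -2.37 (SE 0.49, edgeR adjusted p = 3.55e-04) in mutants and -1.48 (SE 0.48, edgeR adjusted p = 0.0112) in controls, where it was -1.25 (edgeR adjusted p = 0.0687) without control testis library 3. Relative to the median of all genes it was -3.56 to -3.02 in mutants and -2.62 to -2.58 in controls over 5 scalings. The change of tissue contrast with genotype did not pass the interaction test (log2 -0.89, SE 0.66, edgeR adjusted p = 0.99990).

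Of the 7 genes, Rga had the lowest unadjusted p between mutant and control testes, and it did not pass. Its log2 difference was -0.59 with a 95% interval of -1.41 to 0.23 (unadjusted p = 0.156, edgeR adjusted p = 0.827), and -1.07 without mutant testis library 3 (edgeR adjusted p = 0.0577). In ovaries it was 0.40 (95% interval -0.27 to 1.07, edgeR adjusted p = 0.999). Rga also shares the most with a neighbour, since 998 of its exon bases (34.4%) lie opposite asRNA:ASTR, an antisense RNA contained in the locus at 5607799 to 5609810. That feature had 63.9 to 125 CPM in mutant and 115 to 134 CPM in control testes, and 2138 to 3663 CPM in mutant and 3259 to 3607 CPM in control ovaries. In control ovaries asRNA:ASTR averaged 3388 CPM and Rga 110 CPM, and in mutant ovaries 3120 and 132 CPM. The strand setting of the counting is not stated, and the part of either feature's reads in the other's counts was not tested. The whole Rga level in ovaries is therefore uncertain.

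**Figure D3:**
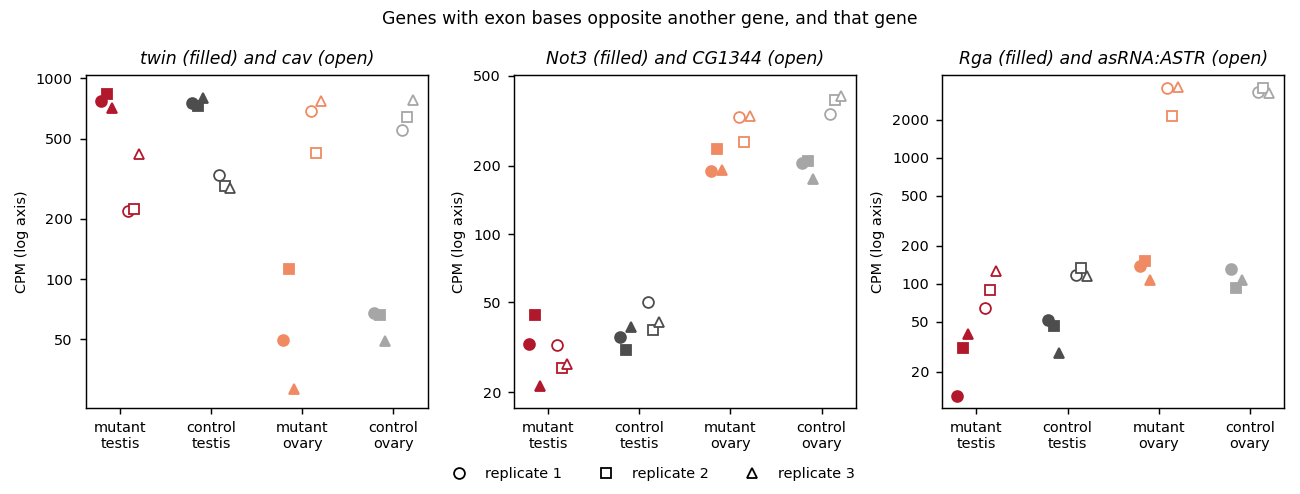
CPM on a log axis of twin, Not3 and Rga (filled) and of the gene on the opposite strand that shares exon bases with each (open), in every library by group. From testes to ovaries cav runs against twin, while CG1344 and asRNA:ASTR run with Not3 and Rga.

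The nuclease of the other complex, PAN2 (FBgn0033352), lies on chromosome 2R at 8928169 to 8933103, plus strand, with 4051 exon bases and none opposite another gene. It had 17.4, 33.2 and 11.6 CPM in mutant testes, against 25.9, 16.0 and 24.7 CPM in control testes. Ovary libraries rested on few counts, with 3, 64 and 6 counts (3.30, 38.8 and 6.57 CPM) in mutants and 7, 4 and 2 counts (7.22, 4.75 and 2.59 CPM) in controls. Control testes were all above control ovaries, whereas mutant ovary library 2 was above every testis library. PAN2 was higher in control testes than in control ovaries (log2 2.07, SE 0.71, edgeR adjusted p = 0.0166), which was 0.97 to 1.01 above the median of all genes over 5 scalings. Among genes without an opposite exon, like PAN2, the median was 2.05 and 49.7% had a higher value, so PAN2 lay at the middle of these. The call was lost with upper quartile scaling (log2 1.31, edgeR adjusted p = 0.0960), with TMM factors from genes without an opposite exon (log2 1.15, edgeR adjusted p = 0.121) and without control ovary library 3 (log2 1.83, edgeR adjusted p = 0.0613). In mutants the log2 difference was 0.43 (SE 0.62, edgeR adjusted p = 0.563), and 1.68 without mutant ovary library 2 (edgeR adjusted p = 0.0283).

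Between mutant and control testes PAN2 differed by -0.13 on the log2 scale (95% interval -0.96 to 0.69, edgeR adjusted p = 0.976). It was below the count filter in the ovary comparison, and where other settings kept it the log2 difference was 1.51 to 1.54, with 0.684 as the smallest edgeR adjusted p. Its interaction term was -1.64 (SE 0.94, edgeR adjusted p = 0.99990), and -0.38 without mutant ovary library 2.

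PAN3, which binds PAN2 and directs it to mRNA, lies on chromosome 3L at 3071133 to 3090406, plus strand (FBgn0035397), with 5969 exon bases and none opposite another gene. It had 18.7, 27.3 and 12.2 CPM in mutant testes, against 17.3, 18.3 and 24.2 CPM in control testes. In mutant ovaries it had 26.4, 130 and 14.2 CPM, against 58.8, 10.7 and 16.8 CPM in control ovaries. Testis values lay close together, while 1 library in each ovary group was well above its partners. That of the controls, library 1, also had the highest muscle marker sum of its group, 1586 CPM against 506 and 510 CPM. The part of muscle in the PAN3 values was not tested. Its log2 difference between testes and ovaries was -1.42 (SE 0.61, edgeR adjusted p = 0.0488) in mutants, and -0.45 (edgeR adjusted p = 0.482) without mutant ovary library 2. The mutant call was lost in 14 of 22 alternatives. In controls it was -0.58 (SE 0.62, edgeR adjusted p = 0.426), and -1.32 with upper quartile scaling (edgeR adjusted p = 0.0435) and -1.45 with TMM factors from genes without an opposite exon (edgeR adjusted p = 0.0197). Relative to the median of all genes it was -2.33 to -2.19 in mutants and -1.72 to -1.59 in controls over 5 scalings.

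The genotypes overlapped for PAN3 in both tissues. In testes the log2 difference was -0.06 (95% interval -0.87 to 0.75, edgeR adjusted p = 0.991). In ovaries it was 1.04 (95% interval -1.11 to 3.20, edgeR adjusted p = 0.999), and -0.21 without mutant ovary library 2. Its interaction term was -0.84 (SE 0.86, edgeR adjusted p = 0.99990).

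**Figure D4:**
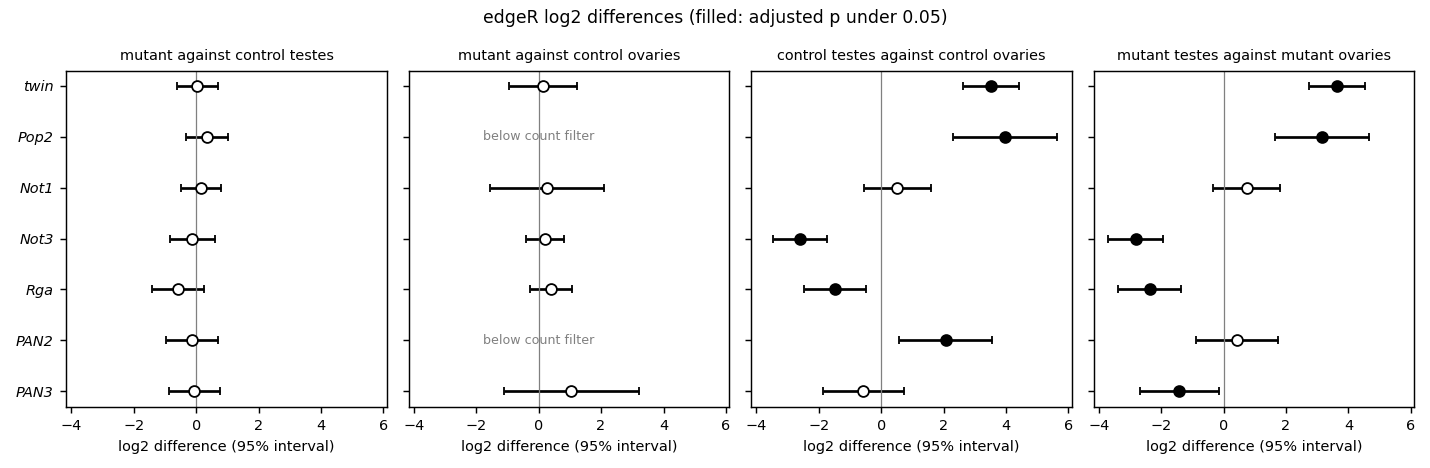
Log2 differences from edgeR with 95% intervals for the 7 genes (rows) in 4 comparisons (panels), filled where the adjusted p is under 0.05. Intervals of the genotype comparisons all cross 0, and those of twin, Pop2, Not3 and Rga lie clear of 0 in both tissue comparisons.

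Between mutant and control testes, 0 of the 7 genes passed edgeR's test, against 0.942% of the 9768 genes tested, and 0 of 7 had an unadjusted p under 0.05. DESeq2 and limma-voom also called 0 of 7 there, as did the other alternatives. The groups overlapped in CPM for all 7 genes, whereas 11.8% of all genes had groups apart. In ovaries 0 of the 5 genes above the count filter passed, as did 0 of all 4683 genes (0%), of which 184 had an unadjusted p under 0.05, 0 of them a deadenylase gene. DESeq2 called 14 of all genes and limma-voom 0, and neither called a deadenylase gene. All 7 genes overlapped between mutant and control ovaries, against 13.8% of genes with groups apart. A difference of the mutant effect between tissues was called by edgeR for 0 of the 7 genes, with 0.0291% of 10321 genes called, and 0 of 7 had an unadjusted p under 0.05. In simulated counts of this depth, the testis test recovered 88% of 4-fold and 17% of 2-fold changes and the ovary test 87% and 17%. The simulation gave every gene the same spread and held no library that stood apart. These shares therefore do not give the recovery in the real libraries. The intervals of Not1 and PAN3 in ovaries, up to 2.099 and 3.20 on the log2 scale, were wider than a 4-fold change.

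The order of the genes per kilobase of exon differed between tissues. In mutant testes twin averaged 164 ± 12.8 CPM per kilobase, followed by Pop2 at 43.0 ± 16.2 (SD, n = 3). The ranges of twin, Pop2 and the next gene did not overlap, whereas those of Not1 (15.8 ± 5.11), Rga (9.58 ± 4.70), Not3 (8.34 ± 2.91), PAN2 (5.11 ± 2.76) and PAN3 (3.25 ± 1.27) each overlapped with the next. Control testes had twin at 160 ± 6.99 and Pop2 at 33.4 ± 7.41, again apart, then Rga at 14.4 ± 4.13 and Not1 at 14.0 ± 1.04, which overlapped. Not3 (8.93 ± 1.06) was apart from Not1 above and from PAN2 (5.47 ± 1.34) below it, and PAN2 overlapped PAN3 (3.34 ± 0.629).

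Ovaries had the NOT pair on top. Not3 averaged 52.7 ± 7.08 CPM per kilobase and Rga 45.5 ± 7.98 in mutant ovaries, against 50.3 ± 4.96 and 37.9 ± 6.69 in control ovaries, with overlapping ranges. The mutant means were 48.6 and 42.2 without library 2. Next came twin, apart from Rga, at 13.4 ± 9.16 in mutant and 13.0 ± 2.22 in control ovaries. Not1 averaged 10.8 ± 13.3 in mutant and 9.08 ± 1.74 in control ovaries, and PAN3 9.56 ± 10.7 and 4.82 ± 4.38. Library 2 set these mutant means, which without it were 8.26 for twin, 3.12 for Not1 and 3.404 for PAN3 (n = 2). The lowest were Pop2, at 5.09 ± 7.11 in mutant and 1.98 ± 1.66 in control ovaries, and PAN2, at 4.01 ± 4.85 and 1.20 ± 0.572. Without library 2 their mutant means were 1.03 and 1.22. From twin downwards each ovary gene overlapped with the next, so their order is not resolved.

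Libraries differed in how their counts divided between genes with and without an opposite exon. Genes without one held 40.0%, 43.9% and 27.4% of gene counts in mutant testes and 30.1%, 34.3% and 37.7% in control testes. They held 9.46%, 32.5% and 8.90% in mutant ovaries and 17.6%, 12.1% and 10.5% in control ovaries. Mutant ovary library 2, high for all 7 deadenylase genes, was therefore also high in this share, and mutant testis library 3 was the lowest of the testis libraries in it. The median tissue difference of mutant libraries was 1.69 on the log2 scale for genes without an opposite exon and -0.43 for those with an opposite exon or no annotation, and 2.05 and -0.40 in controls. Pop2, PAN2 and PAN3 belong to the genes without an opposite exon. Among these, 51.6% were called higher and 10.1% lower in control testes, against 29.1% and 35.9% of the rest, which include twin, Not1, Not3 and Rga. The part of this share in the tissue differences was not tested beyond the values that follow.

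With the log2 ratio of the classes as a term of the model, twin, Pop2 and Not3 kept direction and call in both tissue comparisons. The size for Pop2 was 2.05 in mutants (edgeR adjusted p = 0.00789) and 2.39 in controls (edgeR adjusted p = 0.0210), against 3.15 and 3.97 without the term. Uncalled values changed sign, with Not1 at -0.27 in mutants (edgeR adjusted p = 0.509) and -0.86 in controls (edgeR adjusted p = 0.0592) and PAN2 at -0.74 in mutants (edgeR adjusted p = 0.269). PAN2 fell to 0.61 in the control comparison (edgeR adjusted p = 0.472), against 2.07 without the term. Rga was -0.90 in controls and not called (edgeR adjusted p = 0.110). PAN3 was called as lower in testes in controls with that term, at -2.07 (edgeR adjusted p = 0.00341). Counted per 1000000 counts in genes without an opposite exon, Pop2 averaged 301 ± 57.2 in mutant and 260 ± 35.3 in control testes, and 56.6 ± 54.3 in mutant and 45.3 ± 46.2 in control ovaries (SD, n = 3 each). PAN3 on that scale averaged 51.2 ± 9.70 in mutant and 58.3 ± 5.49 in control testes, and 280 ± 121 in mutant and 194 ± 126 in control ovaries. Pop2 thus stayed higher in testes on this scale, and PAN3 higher in ovaries. The means of twin, Not3 and Rga also kept direction, but those of PAN2 in mutants and Not1 in both genotypes did not. PAN2 averaged 53.8 ± 19.0 in mutant testes and 76.0 ± 42.3 in mutant ovaries, against 66.0 ± 19.7 and 35.0 ± 8.95 in controls. In testes and ovaries, Not1 averaged 464 ± 77.1 and 541 ± 298 in mutants, and 449 ± 20.7 and 756 ± 135 in controls.

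**Figure D5:**
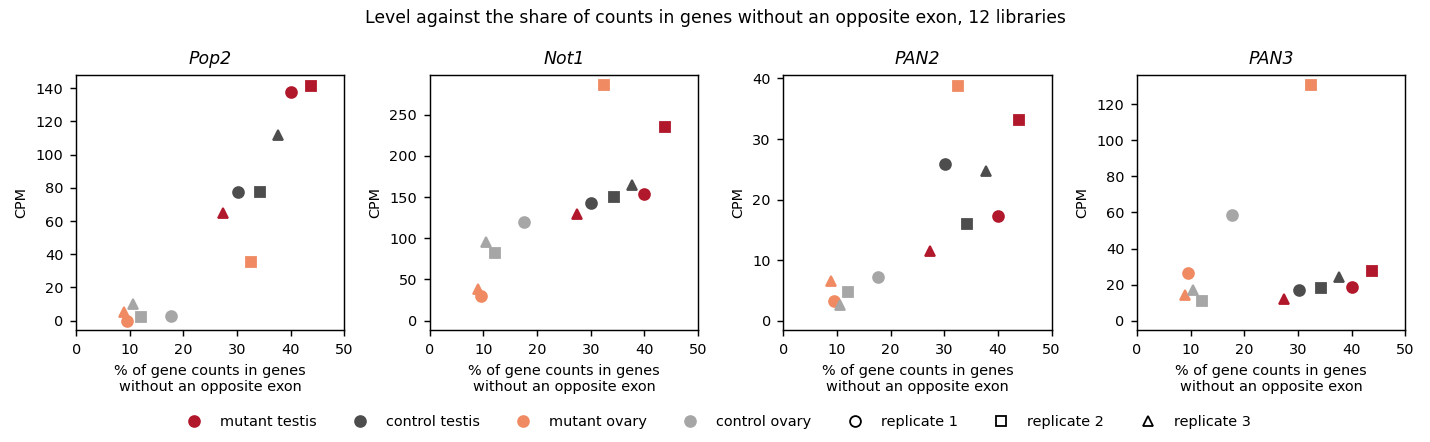
CPM of Pop2, Not1, PAN2 and PAN3 (vertical) against the share (%) of gene counts that fell in genes without an opposite exon (horizontal) in the 12 libraries, coloured by group with symbols by replicate number. Mutant ovary library 2, at 32.5%, lies among the testis libraries on the horizontal axis and has the highest Not1, PAN2 and PAN3 levels.

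The remaining CCR4-NOT subunits were taken from a list of 5 genes, of which 3 were called higher in testes in mutants, 2 in controls and 0 lower in either, where 41.2% and 42.7% of all genes were called higher. Not11, which binds the Not1 scaffold with Not10, averaged 25.6 ± 4.64 CPM in mutant and 30.6 ± 6.32 CPM in control testes, and 6.37 ± 3.42 CPM in mutant and 5.27 ± 2.94 CPM in control ovaries (SD, n = 3 each). Its log2 difference between testes and ovaries was 1.95 in mutants (edgeR adjusted p = 0.00491) and 2.43 in controls (edgeR adjusted p = 0.00128). Rcd-1, the fly CAF40, was likewise higher in testes, by 2.45 in mutants (edgeR adjusted p = 0.0164) and 3.28 in controls (edgeR adjusted p = 0.00503). In mutant ovaries Rcd-1 had 0, 44.3 and 0 CPM, so the mutant size rests on library 2. Its relative Rcd-1r was called in mutants, at 5.38 (edgeR adjusted p = 0.00108), and 1 of 3 control ovary libraries held 51.1 CPM with the others at 0. As related genes, Rcd-1 and Rcd-1r may share reads, and their split is uncertain. Not10 and Cnot4 were not called in either genotype. The 5 genes had a median log2 difference of 1.95 in mutants and 1.61 in controls, where all genes had 0.82 and 1.09. Without mutant ovary library 2 the mutant median was 2.16 against 1.78 for all genes. In that fit 3 of the 5 were called higher, as were 50.6% of all genes. Not10, Not11 and Rcd-1 have no opposite exon, and the medians of such genes were 1.69 in mutants and 2.05 in controls. The rest, which include Rcd-1r and Cnot4, had medians of -0.43 and -0.40. Of the other deadenylase relatives, angel was higher in testes, by 1.90 in mutants (edgeR adjusted p = 0.0325) and 2.05 in controls (edgeR adjusted p = 0.0284), and cu was not called.

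Of the proteins that recruit deadenylases or work with them, 10 of 13 listed genes were tested. BicC, bam and cup fell below the count filter. In mutant ovaries BicC and cup had 0 CPM in each library, and bam had 0, 6.07 and 0 CPM. Why these genes had so few counts was not tested, nor which strand's reads the counts hold. Absence of their mRNA is therefore not shown. Of the 10 tested genes, 3 were called higher and 4 lower between mutant testes and mutant ovaries. Between control testes and control ovaries 4 were called higher and 2 lower. The list medians were -0.11 and 0.89. All genes had medians of 0.82 and 1.09, with 41.2% higher and 21.9% lower in mutants and 42.7% and 20.2% in controls. Without mutant ovary library 2 the mutant comparison called 5 higher and 1 lower, with a median of 0.63 against 1.78 for all genes. In that fit 50.6% of all genes were called higher and 21.1% lower. nanos, whose protein recruits CCR4-NOT, averaged 728 ± 230 CPM in mutant and 1024 ± 76.3 CPM in control testes, and 88.6 ± 12.02 CPM in mutant and 79.0 ± 11.3 CPM in control ovaries. The tissue difference of nanos was 2.89 in mutants (edgeR adjusted p = 3.08e-05) and 3.57 in controls (edgeR adjusted p = 5.05e-06). bgcn, the partner of bam in germ cell differentiation, was higher in testes in both genotypes. Tis11, which binds AU-rich mRNA elements, was lower in testes, by -2.10 in mutants (edgeR adjusted p = 0.00355) and -2.46 in controls (edgeR adjusted p = 0.00161), and was not called in mutants without mutant ovary library 2 (log2 -1.13, edgeR adjusted p = 0.0564). The GW182 gene gw was called lower in mutants (log2 -1.64, edgeR adjusted p = 0.00449) and brat, an mRNA-binding repressor, higher in controls (log2 1.55, edgeR adjusted p = 0.00815).

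Among the enzymes that lengthen poly(A) tails, Gld2 was higher in testes and wisp in ovaries, while hrg, a nuclear poly(A) polymerase, was not called. Gld2, a cytoplasmic poly(A) polymerase of the male germline, averaged 175 ± 76.8 CPM in mutant and 172 ± 9.28 CPM in control testes. It had 0.567 ± 0.549 CPM in mutant ovaries and 0 counts in all 3 control ovary libraries, where 3 counts over the group would be 1.16 CPM. Gld2 was thus at least 148-fold higher in control testes than in control ovaries. wisp, the counterpart of the female germline, averaged 2.22 ± 2.94 CPM in mutant and 1.79 ± 3.11 CPM in control testes, and 42.9, 228 and 31.8 CPM in the mutant ovary libraries and 29.9 ± 1.02 CPM in control ovaries. The mutant ovary mean of 101 CPM was 37.3 CPM without library 2. Its log2 difference between testes and ovaries was -5.18 in mutants (edgeR adjusted p = 1.40e-04) and -3.96 in controls (edgeR adjusted p = 0.00191), and -4.26 in mutants without that library (edgeR adjusted p = 4.60e-05). Over the 8 listed poly(A) polymerases and poly(A)-binding factors, 2 were called higher and 2 lower in mutants, and 3 higher and 1 lower in controls, with list medians of 0.41 and 1.11, against 0.82 and 1.09 for all genes. Of all genes 41.2% were called higher and 21.9% lower in mutants, and 42.7% and 20.2% in controls. Without library 2 the mutant comparison called 5 higher and 1 lower, with a median of 1.79 against 1.78 for all genes. In that fit 50.6% of all genes were called higher and 21.1% lower. Paip2, an inhibitor of poly(A)-binding protein, was higher in testes in both, orb (the fly CPEB) higher in controls and pAbp lower in mutants. Without library 2, pAbp was no longer called (log2 0.42, edgeR adjusted p = 0.356), while orb was called as higher in mutants too (log2 2.66, edgeR adjusted p = 7.08e-06).

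Downstream of deadenylation, 6 decapping and 5′-to-3′ decay genes were tested, with 0 called higher and 1 lower in mutants and 1 higher and 1 lower in controls (medians -0.98 and -0.28). The mutant counts were the same without mutant ovary library 2, and the median was 0.81. tral was lower in testes in both, by -1.81 in mutants (edgeR adjusted p = 0.00357) and -1.30 in controls (edgeR adjusted p = 0.0264), and LSm1, a decapping activator, was higher in control testes. Of 11 exosome genes, 3 were called higher and 4 lower in mutants and 4 higher and 4 lower in controls (medians 0.24 and 0.35), and 4 and 4 were called in mutants without library 2. For both lists the shares of all genes called, 41.2% higher and 21.9% lower in mutants and 42.7% and 20.2% in controls, are the background. Without library 2 the mutant shares were 50.6% and 21.1%. The exosome subunit Rrp40 averaged 298 ± 86.5 CPM in mutant and 356 ± 1.96 CPM in control testes, and 5.56 ± 3.87 CPM in mutant and 6.44 ± 2.86 CPM in control ovaries. Its partner Rrp45 ran the other way, with 9.08 ± 1.55 CPM in mutant and 15.3 ± 2.36 CPM in control testes, and 72.6 ± 9.62 CPM in mutant and 99.8 ± 13.6 CPM in control ovaries. Rrp40 and Rrp45, like nanos, brat, LSm1 and Rcd-1r, have exon bases opposite another gene. The part of these bases in their counts was not tested. Between mutants and controls edgeR called 0 of the 40 genes of these lists tested in testes and 0 of 26 in ovaries, of which 3 and 2 had an unadjusted p under 0.05. DESeq2 and limma-voom also called 0 in both tissues. No listed gene passed the interaction test, so a call in 1 genotype alone is not shown to differ from the other. The smallest adjusted p of the testis comparison belonged to the exosome nuclease Dis3 (log2 1.57, edgeR adjusted p = 0.575, unadjusted p = 0.0299).

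Likeness of pattern was measured as the root mean square difference of centred log2 values over the 12 libraries among 10321 genes. The genes most like twin were Cyp305a1 and lncRNA:CR42859, both at 0.27, and those most like Pop2 were CG10055 (0.38) and FBgn0037744 (0.49). Not1 was closest to eIF2beta (0.25) and Rpt5 (0.26), and Not3 to Tbcb and Afti (both 0.24). Rga was closest to FBgn0266421 and cher (both 0.29), PAN2 to CG31635 (0.34) and Sec61alpha (0.38), and PAN3 to HDAC4 (0.27) and Khc (0.30). Among the deadenylase genes themselves, Not1 and PAN2 (0.65) and Not3 and Rga (0.65) were the closest pairs. Many other genes were closer to each of them. PAN2 ranked 595th by likeness to Not1, and Not1 268th to PAN2. Rga ranked 768th by likeness to Not3, and Not3 634th to Rga. The nucleases twin and Pop2 were 1.08 apart, with Pop2 ranked 2924th for twin and twin 786th for Pop2. Pop2 and Not3 were the farthest apart at 3.50.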

How the data were processed

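The 12 libraries (200 ng of RNA each, TruSeq RNA Library Prep kit v2, which does not mark strand) were deposited by the authors as raw gene counts, with a file for each library. FastQC, TopHat2 2.1.1, HTSeq 0.9.1, DESeq and the BDGP6 build are named in the submitters' processing notes, and no source used here states the strand setting of the counting. HTSeq's summary lines, 95.8% to 98.2% of records, entered neither library sizes nor tests. Of the records aligned to 1 place, genes took 3.33% to 5.02% in a testis library and 1.95% to 3.29% in an ovary library. The reason was not tested, and which strand's reads the gene counts hold is not known.

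Positions, exon bases and opposite exons came from Ensembl 115 (BDGP6.54), which holds 17252 of the features. Of these 12789 have no opposite exon base. CPM values use the sum of gene counts. Tests used edgeR 4.0.16 (R 4.3.3) with filterByExpr (minimum count 10), TMM scaling and the robust two-sided quasi-likelihood F test, on 6 libraries for genotype and all 12 for tissue and interaction. Alternatives were other scalings and filters, DESeq2 1.42.0, limma-voom 3.58.1, a replicate block, the opposite-exon ratio as a term, all 12 libraries in 1 model and leaving out each library. Scripts were tested on simulated data with 200 changed genes. Intervals of log2 differences come from the edgeR fit and include the spread between libraries. Floors of 3 counts cover counting error only. In each of the 12 replicate pairs the counts differed beyond sampling noise, with a chi-square of 4.31 to 50.6 times its degrees of freedom, and every library entered as its own sample.

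Members and lists were chosen with earlier results of these data known. Named genes are the members, Tdrd5l, up to 4 called genes per list and comparison (or 2 with the smallest p), and the 2 genes nearest to each member. Some of the genes so selected are summarised by count. Dcp1, Dcp2 and Ge-1 were not analysed here. No sequences are shown.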

Additional observations from a re-analysis of the deposited data

How the results depend on the processing

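Over 666 repeats of the deadenylase log2 differences under other settings, 640 kept direction and call or stayed uncalled, 20 lost a call, 6 gained 1 and 0 reversed a called direction. Both tissue comparisons called twin, Pop2 and Not3 the same way in all 22 alternatives. Rga did so in all 22 for mutants and in 20 for controls, PAN2 in 18 for controls, and PAN3 in 8 for mutants. The PAN3 call in mutants ended with the replicate block (-1.34, edgeR adjusted p = 0.0786) and without mutant ovary library 2 (-0.45, edgeR adjusted p = 0.482), and Not1 in mutants gained a call with DESeq2 (1.14, DESeq2 adjusted p = 0.0392). The number of all genes called between mutant and control testes was 92, and 58 with library totals alone, 28 with TMM factors from genes without an opposite exon, 177 with the opposite-exon ratio as a term, 9 with all 12 libraries in 1 model and 49 to 725 leaving out 1 library (725 without mutant testis library 3). In ovaries it was 0, and 1 with upper quartile scaling, 8 with the restricted TMM factors, 7 without a filter, 3 with the 1 CPM filter, 14 with DESeq2, 92 with the ratio term, 5 with all 12 libraries and 0 to 55 leaving out 1 library (55 without mutant ovary library 2). The interaction had 3, and 5 with DESeq2 size factors, upper quartile scaling and the restricted factors each, 6 without a filter and with limma-voom, 13 with DESeq2 and with the ratio term, and 1 to 6 leaving out 1 library. The cause of these shifts was not tested. With the replicate block, 79 genes were called in testes and 0 in ovaries. Whether the numbers pair the samples is not known. Deviations of same-numbered libraries from their group means correlated over genes at -0.19, 0.01 and -0.34 in testes and -0.56, -0.45 and 0.30 in ovaries. Mutant ovary library 2 and control ovary library 1, with different numbers, reached 0.70, so these values cannot decide it. Counting per 1000000 counts in genes without an opposite exon, and group means without the libraries that stood apart, were added after seeing the data. Depth limits Pop2 and PAN2 in ovaries, where control libraries held at most 8 counts.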
